A study of Mus musculus with 10 samples.

Results

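The population named elongating spermatids (eST) was set against the population named round spermatids (rST), gene by gene, in matrices of RNA and chromatin accessibility. Whether most eST cells are spermatids cannot be told from the deposited tables, for reasons given below. Both populations carry the names given in the deposited cell tables, which hold 1195 eST and 7325 rST cells among 45250 cells with scRNA-seq. Of 30795 genes in either matrix, 15304 had enough signal to be compared in both. The data come from simultaneous scRNA-seq and scATAC-seq on nuclei of mouse testes, taken from wild-type mice at 11, 17 and 25 days postpartum (dpp) and from Cre/+ and Nfya-CKO mice at 8 weeks. In Nfya-CKO mice, Nfya, which encodes a subunit of the CCAAT-binding factor NF-Y, is deleted by Stra8-Cre, a Cre recombinase driven in germ cells by the Stra8 promoter, in a C57BL/6J background. The Cre/+ mice carry the same Cre. Each condition is 1 library per assay, and how many animals a library holds is not given in the sources used here. Of the eST cells, 1190 came from Cre/+, 3 from wild-type 25 dpp and 2 carried no library name. Of the rST cells, 5639 came from Cre/+, 1676 from wild-type 25 dpp and 10 carried no library name.

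Round spermatids are haploid cells that follow meiosis and transcribe genes for the acrosome, the tail and the condensed sperm nucleus. As they elongate, histones are replaced first by transition proteins and then by protamines, the chromatin is packed tightly and transcription stops. Many spermatid mRNAs are stored and translated later, so an mRNA may remain after its gene is no longer transcribed.

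The promoters of late spermatid genes are shown first, because the RNA of these genes was higher in eST than in rST while their accessibility was lower or level. Each run holds the 120 bases before an annotated start of RefSeq on GRCm38.p6, the mm10 assembly, written 5′ to 3′ on the strand of the gene. Capitals mark the motifs that were searched on both strands: the full cAMP response element (CRE) TGACGTCA, its short form TGACG, the CRE variant TGATGTCA, the CCAAT box CCAAT, the X-box core GTTGCC and the TATA box TATAAA, whose minus-strand match reads TTTATA.
Tnp1 chr1:73015900-73016019, minus strand: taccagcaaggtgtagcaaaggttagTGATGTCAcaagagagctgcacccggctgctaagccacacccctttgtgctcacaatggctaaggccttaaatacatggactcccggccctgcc
Tnp2 chr16:10788656-10788775, minus strand: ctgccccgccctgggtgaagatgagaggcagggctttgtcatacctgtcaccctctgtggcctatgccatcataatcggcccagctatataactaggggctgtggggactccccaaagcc
Prm1 chr16:10796824-10796943, minus strand: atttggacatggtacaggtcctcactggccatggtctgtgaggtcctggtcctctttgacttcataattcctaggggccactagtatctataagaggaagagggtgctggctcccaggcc
Prm2 chr16:10792106-10792225, minus strand: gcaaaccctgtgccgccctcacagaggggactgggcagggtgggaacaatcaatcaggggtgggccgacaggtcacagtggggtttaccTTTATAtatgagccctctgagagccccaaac
Akap4 chrX:7067395-7067514, plus strand: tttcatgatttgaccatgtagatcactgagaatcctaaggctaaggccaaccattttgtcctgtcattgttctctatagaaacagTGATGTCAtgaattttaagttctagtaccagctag
Hspa1l chr17:34972583-34972702, plus strand: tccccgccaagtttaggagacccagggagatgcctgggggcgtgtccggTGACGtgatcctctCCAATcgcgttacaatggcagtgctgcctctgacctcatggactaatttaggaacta
Tssk6 chr8:69902064-69902183, plus strand: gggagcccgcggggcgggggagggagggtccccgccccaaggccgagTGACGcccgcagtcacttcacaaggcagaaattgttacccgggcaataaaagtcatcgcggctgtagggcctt
The promoters of Tnp1 and Akap4 held the CRE variant, those of Hspa1l and Tssk6 held the short CRE, and none of the 6 motifs was found in these windows of Tnp2 and Prm1. Akap4 has a further RefSeq start at which no motif was found in the window. A match describes the letters only and is not evidence that a factor binds there.

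The values of both populations rest on unequal material, and the labels of some cells disagree between assays or libraries. The rST population held 21474041 UMIs (unique molecular identifiers, each an RNA molecule captured once) and eST 3850784. The median rST cell had 2132 UMIs and 1115 genes, against 2562 UMIs and 1729 genes in eST. The eST cells lay in 2 clusters that differed from each other. Cluster 22, with 747 cells, had medians of 3198 UMIs, 2349 genes and 0.660% mitochondrial UMIs. Cluster 27, with 448 cells, had medians of 1599.5 UMIs, 809 genes and 1.49%.

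Cell barcodes were shared between libraries. The Cre/+ and Nfya-CKO scRNA-seq libraries held 3813 barcode numbers in common, whereas Cre/+ shared 2, 2 and 19 with wild-type 11, 17 and 25 dpp. The wild-type libraries also shared barcodes with one another, 703 between 11 and 17 dpp, 621 between 11 and 25 dpp and 853 between 17 and 25 dpp. Of the 1190 Cre/+ eST cells, 709 (59.6%, exact binomial 95% interval 56.7 to 62.4%) had a barcode that was also a cell of Nfya-CKO, and all 709 of these Nfya-CKO cells were named soma_CKO, the somatic population of that library. Intervals on shares of cells cover counting error only. The sharing was concentrated in cluster 22, with 703 of 742 cells (94.7%, 92.9 to 96.2%), against 6 of 448 (1.34%, 0.493 to 2.89%) in cluster 27. In cluster 22 the shared barcodes had a median of 3188 UMIs in Cre/+ and 29694 in Nfya-CKO, with a median of 10.5% of the UMIs of the Nfya-CKO cell. Across these 703 barcodes the 2 UMI counts were correlated (Spearman rho 0.76, a description across cells of 1 pair of libraries). Among Cre/+ rST cells, 610 of 5639 (10.8%) shared a barcode with Nfya-CKO, and 607 of the 610 had more UMIs in Cre/+. In Cre/+ pSC 1110 of 1411 cells (78.7%) shared a barcode and all 1110 had more UMIs in Cre/+, and in dSC it was 534 of 2193 (24.4%), of which 494 had more. The Nfya-CKO cell was also named soma_CKO for 609 of the 610 rST cells, all 1110 pSC cells and 503 of the 534 dSC cells. The 481 eST cells of Cre/+ with no such sharing had medians of 1627 UMIs and 825 genes. Each matrix holds 1 pooled value per gene and population, so no value below could be computed without the shared cells, and their part in the values was not tested. In cluster 22, which holds 747 of the 1195 eST cells, only 28 of the 703 shared barcodes had more UMIs in Cre/+. This differed from rST, pSC and dSC, and it puts the label of the cluster 22 cells in doubt. Whether these cells are copies of Nfya-CKO somatic cells was not tested. In what follows, eST means the cells that carry this name, and whether most of them are spermatids cannot be told from the deposited tables. For the same reason no gene has a replicate or a test. A gene is counted as higher or lower when the populations differed at least 2-fold, by size alone.

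Fewer cells with the eST name had accessibility. By barcode, 121 of 1190 Cre/+ eST cells (10.2%, 8.51 to 12%) had a scATAC-seq cell, against 3371 of 5639 rST cells (59.8%, 58.5 to 61.1%). The share was 6.60% in cluster 22 and 16.1% in cluster 27. Over all libraries, 124 scATAC-seq cells carried the eST name from RNA, with 2936872 fragments, and 4835 carried the rST name, with 63585910 fragments. Which cells make up the eST column of the accessibility matrix is not given in the sources used here. Accessibility is given below as parts per 1000000 of the population's signal (ppm), and 10 ppm of all eST fragments were 29.4 fragments.

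The names given from scATAC-seq differed from those given from RNA. No scATAC-seq population was named eST. Of the 124 eST cells, scATAC-seq named 50 (40.3%) pSC, the pachytene spermatocytes, 32 (25.8%, 18.4 to 34.4%) rST and 20 (16.1%, 10.1 to 23.8%) soma_Sertoli. All 20 soma_Sertoli cells were in cluster 22, where they made up 38.5% (25.3 to 53.0%) of 52. Of 4829 rST cells matched by barcode, 3155 (65.3%, 64.0 to 66.7%) were named rST, 1078 (22.3%) pSC and 33 (0.683%) soma_Sertoli. Of the 121 Cre/+ eST cells with accessibility, 30 shared a barcode number with a Nfya-CKO scRNA-seq cell, as did 532 of 3376 rST cells. With Nfya-CKO scATAC-seq cells, 3 eST and 3 rST cells shared a barcode number. The nucleosome ratio, of di- and multi-nucleosomal to mono-nucleosomal fragments as deposited, had a median of 0.486 in eST and 0.680 in rST. Among Cre/+ cells with the scATAC-seq name pSC it was 0.438 in eST and 0.444 in rST, and among those with the name rST it was 0.639 and 0.721. It went the other way among those with the name soma_Sertoli, at 0.496 in 18 eST cells and 0.408 in 20 rST cells. Enrichment of cuts at transcription start sites had medians of 8.22 and 7.89.

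**Figure D1:**
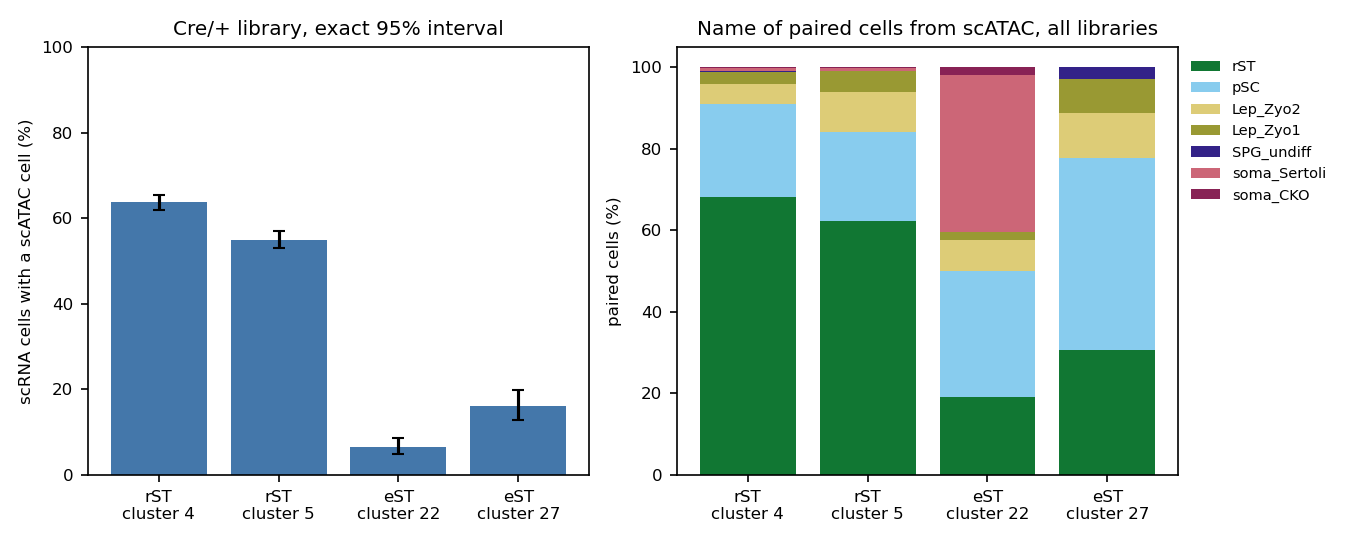
Left, percent of Cre/+ scRNA-seq cells of each cluster whose barcode also has a scATAC-seq cell (bars from 0, with exact binomial 95% intervals). Right, percent of the paired cells of all libraries that carry each scATAC-seq name, as stacked bars per cluster. The 2 rST clusters were mostly named rST, whereas eST cluster 22 had 38.5% of cells named soma_Sertoli and all of the eST cells with this name were in that cluster.

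RNA was measured as UMIs per 10000 of the population, so each value is a share of that population's RNA, and more of one gene group cannot be told apart from less of the others. With 0.1 added to both values, 1538 of 15316 genes (10%) were at least 2-fold higher in eST and 1726 (11.3%) at least 2-fold lower. The median log2 ratio was 0.09, with quartiles of -0.49 and 0.56. Of the genes that were higher, 1289 (83.8%) had at least 1 of the 3 somatic populations at or above the eST level, and their summed RNA was 329.6 in rST, 1272 in eST and 2756 in soma_Sertoli per 10000. The other 249 had eST above every somatic population, with a sum of 289.5 in rST and 847 in eST. Of the genes that were lower, 1660 (96.2%) had rST above every somatic population, and the sum over all 1726 was 2619 in rST and 781 in eST. Of all 15316 genes, 7959 (52%) had a somatic population at or above both rST and eST.

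The genes that stood above every somatic population in rST or eST were therefore read apart, a choice made after the values were seen. Of these 7357 genes, 249 (3.38%) were higher, 1660 (22.6%) were lower, and the median log2 ratio was -0.43. Their summed RNA was 6909 per 10000 in rST and 5367 in eST. The choice uses the same RNA values as the ratio, so it partly fixes this split and median: a lower gene can enter through rST alone, and 1289 of the 1538 higher genes left. These values stand beside the counts of spermatid gene lists below as a description, as do the 10% higher, 11.3% lower and median of 0.09 over all genes.

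Markers of the cell types bear on both labels. The study named populations by marker genes, so these levels describe the names and are no independent result. The eST markers Prm1, Prm2, Tnp1 and Tnp2 summed to 29.5 per 10000 in rST, 118 in eST and 0.0108 to 6.71 in the somatic populations. The 4 rST markers Acrv1, Spaca1, Tssk1 and Acr summed to 12.8 in rST and 6.12 in eST, with 2 at least 2-fold lower and none 2-fold higher. Their lowest level was 0.595 in rST and 0.760 in eST, so not all were lower in eST. Sertoli cell markers, genes of the supporting cells of the tubule, moved with the eST label: the 7 compared of 8 were at least 2-fold higher in eST, and the list summed to 4.86 per 10000 in rST and 46.6 in eST. The 7 passed the filter on the mean of eST and rST, which a high eST value alone can meet. The eighth, Amh, the anti-Mullerian hormone, did not pass, at 0.00641 in rST and 0.00436 in eST. Those values were 0.691% and 0.471% of its 0.927 in soma_Sertoli, while in soma_CKO Amh was at only 0.0321. The 7 genes reached 17.8 to 107% (median 27.02%) of their soma_Sertoli level in eST and 2.32 to 20.5% (median 4.20%) in rST. Leydig cell markers, genes of steroid-producing cells outside the tubule, were at least 2-fold higher for 3 of 4 compared, with sums of 0.786 and 5.70 over 5 genes. They reached 2.15 to 21.6% of their level in soma_CKO in eST and 0.297 to 1.50% in rST. Macrophage markers summed to 0.199 and 0.127, and no marker of these lists was at 0 in eST. Over 4 peritubular and endothelial markers the sums were 0.766 and 1.03, and of 3 compared none reached 2-fold either way. Mitochondrially encoded RNA was 78.9 per 10000 in rST and 113 in eST.

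The 12 genes with the largest RNA ratio, by the rule fixed for naming genes, all had a somatic population at or above eST. Clu, which encodes the secreted chaperone clusterin of Sertoli cells, was at 2.90 per 10000 in rST, 31.3 in eST, 34.1 in soma_Sertoli and 91.5 in soma_CKO. Its log2 ratio was 3.39. Sparc, a matrix protein gene, was at 2.14 in rST and 19.6 in eST (log2 ratio 3.13), and reached 85.2 in the highest somatic population. Cldn11, which encodes the claudin of the Sertoli cell barrier, had a log2 ratio of 3.13, and Inha, the inhibin alpha subunit, one of 3.14. The glutathione transferase genes Gstm7, Gstm1 and Gstm6, with log2 ratios of 3.38, 3.31 and 3.18, and the defensin genes Defb36 and Defb19, with 3.09 and 3.05, were in the same group. Sox9, a Sertoli cell transcription factor, was at 0.299 in rST and 1.90 in eST (log2 ratio 2.32), 17.8% of its highest somatic level. Insl3, a Leydig cell hormone, was at 0.527 in rST and 3.81 in eST (2.64), against 177 in soma_CKO.

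**Figure D2:**
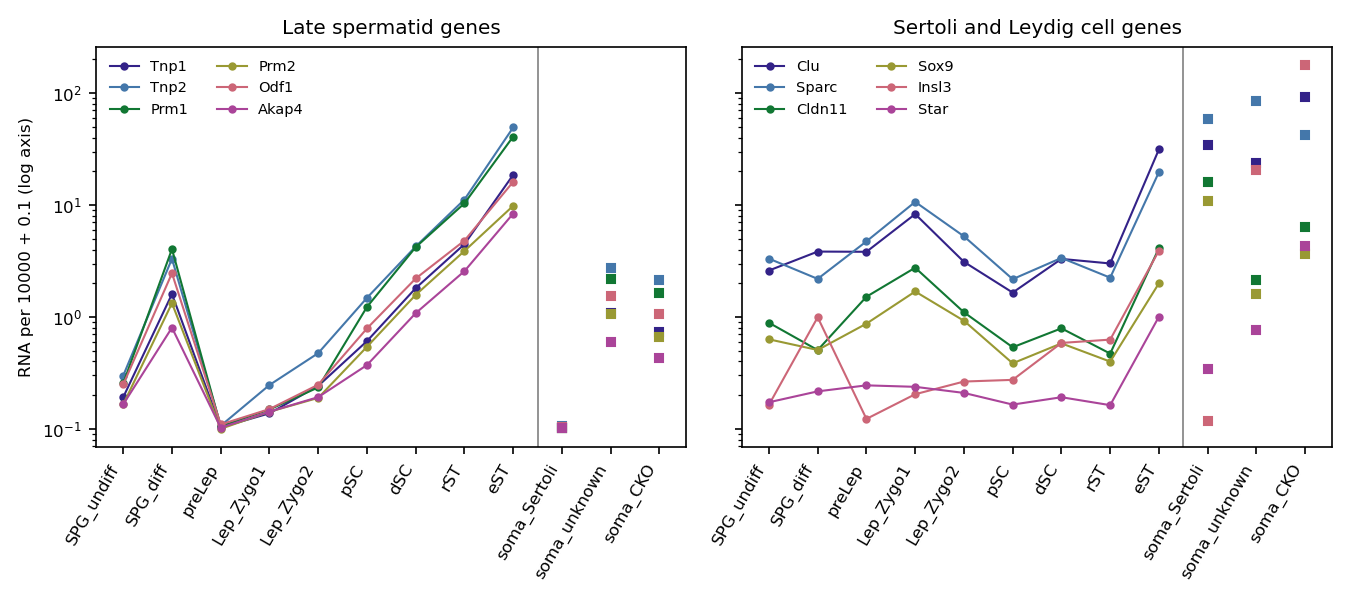
RNA per 10000 plus 0.1, on a log axis, of 6 late spermatid genes (left) and 6 Sertoli and Leydig cell genes (right) in 9 germ cell populations in order of differentiation (circles joined by lines) and in 3 somatic populations (squares). Each point is 1 pooled value without an error. The late spermatid genes climbed from pSC to eST, whereas Clu, Sparc and Insl3 stepped up from rST to eST and were higher still in at least 1 somatic population.

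Genes of nuclear condensation were higher in eST. Of 7 members, 5 (71.4%) were at least 2-fold higher, none was lower, the median log2 ratio was 1.91 and all 7 stood above every somatic population. Their summed RNA was 33.7 per 10000 in rST and 127 in eST. Because 4 of the 7 are also markers of the eST label, the list is no independent evidence of its direction. Tnp2, which encodes transition protein 2 (mm10 chr16:10787936-10788660, minus strand), was at 1.38 per 10000 in pSC, 4.16 in diplotene spermatocytes (dSC), 11.1 in rST and 49.3 in eST. Its log2 ratio between the last 2 was 2.14, and its highest somatic level was 2.66. Tnp1, for transition protein 1, was at 4.37 in rST and 18.5 in eST (log2 ratio 2.06). Prm1, for protamine 1, was at 10.3 and 40.8 (1.98), and Prm2, for protamine 2, at 3.79 and 9.74 (1.34). The values climbed in every step from pSC to eST for each of these 4 genes. SPG_diff, the differentiating spermatogonia, which precede meiosis, had 3.21 of Tnp2 and 3.94 of Prm1.

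The linker histones of the spermatid nucleus behaved unequally. H1fnt (H1T2) was at 0.788 per 10000 in rST and 3.25 in eST (log2 ratio 1.91), whereas Hils1 was at 1.42 and 2.34 (0.69). Prm3, a protamine-related gene of the same cluster as Prm1 and Prm2, was at 1.97 and 2.61 (0.39), under the 2-fold limit. Of 13 histone genes and variants compared, 1 was higher and 1 lower. The higher was H2al2a, a variant placed on chromatin together with transition proteins, at 0.693 and 2.44 (1.68). The lower was H2afy2, a macroH2A gene, with a log2 ratio of -1.50. Among 19 factors of the exchange of histones for protamines, 1 was higher and 2 were lower. Tssk6, a testis-specific kinase, was at 0.956 and 5.08 (2.29), while Nutm1, an activator of histone acetylation in spermatids, had -1.47 and the kinase gene Camk4 -1.39. Chd5, a chromatin remodeller, was at 5.07 and 2.96 (-0.75).

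Lists of dense fibres, axoneme, mitochondrial sheath, acrosome, egg binding and ion channels come next. In each, at most 1 member had a somatic population at or above both rST and eST. Of 16 genes of the outer dense fibres and fibrous sheath, 4 (25.0%) were higher and 2 (12.5%) lower, with a median of 0.58. Odf1, a main protein of the dense fibres, was at 4.71 per 10000 in rST and 16.0 in eST (log2 ratio 1.75). Akap4, the X-linked anchor of protein kinase A in the fibrous sheath, was at 2.47 and 8.29 (1.71). Oaz3, the antizyme of haploid germ cells, had 1.93 and Fscb, a sheath protein gene, 1.30. The lower pair were Odf3, at 4.97 and 1.12 (-2.06), and Cabyr, a calcium-binding sheath protein, with -1.52. Of 30 genes of the axoneme, the microtubule core of the tail, none was higher and 8 (26.7%) were lower, with a median of -0.56. The share lower was 11.3% over all genes and 22.6% over genes above every somatic population, whose choice partly fixes it. Hydin, of the central pair of microtubules, was at 4.58 and 1.22 (-1.83), and Spag16 at 9.01 and 2.88 (-1.61). Rsph1, a radial spoke gene, went the other way, at 4.07 and 7.07 (0.78). None of 13 genes of the mitochondrial sheath reached 2-fold either way. Smcp, for a cysteine-rich protein of sperm mitochondria, was at 6.36 and 10.6 (0.72), and the cytochrome oxidase gene Cox6b2 at 14.6 and 7.94 (-0.87). Of 20 genes of the manchette and tail transport, which shape the nucleus and carry tail proteins, 1 was higher and 5 (25.0%) were lower. Rimbp3, of the manchette, was at 0.366 and 1.05 (1.30), and Sun3, of the nuclear envelope, at 1.26 and 0.491 (-1.20).

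Of 29 acrosome and perinuclear theca genes, 11 (37.9%) were lower and 2 (6.90%) higher, with a median of -0.57. Acrv1, an acrosomal matrix protein gene, was at 7.19 per 10000 in rST and 2.56 in eST (-1.45). Spam1, the sperm hyaluronidase, was at 1.63 and 0.315 (-2.06), Spaca3 at 3.16 and 0.701 (-2.03), and Zp3r, a zona-binding protein gene, had -1.95. The higher pair were Sppl2c, an intramembrane protease gene, at 0.579 and 1.92 (1.57), and Capza3, a capping protein of the theca, with 1.01. Of 21 genes of sperm-egg binding and fusion, 8 (38.1%) were lower and 2 (9.52%) higher, with a median of -0.21. Over all genes 11.3% were lower, with a median of 0.09. Genes above every somatic population had 22.6% lower and a median of -0.43, which their choice partly fixes. Izumo1, the sperm ligand of the egg receptor Juno, was at 2.72 and 0.504 (-2.22), and Spaca6, also required for fusion, at 3.29 and 0.825 (-1.87). Ace, whose testis isoform is made in spermatids, was at 1.93 and 5.73 (1.52), and Adam3 at 2.26 and 4.96 (1.10). Of 16 ion channels and transporters, 6 (37.5%) were lower and none higher. Members of 1 channel complex differed, since Catsper4 was at 3.66 and 0.605 (-2.42) and Catsper1 had -1.89, whereas Catsperz, an auxiliary subunit, was at 2.17 and 4.09 (0.88).

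**Figure D3:**
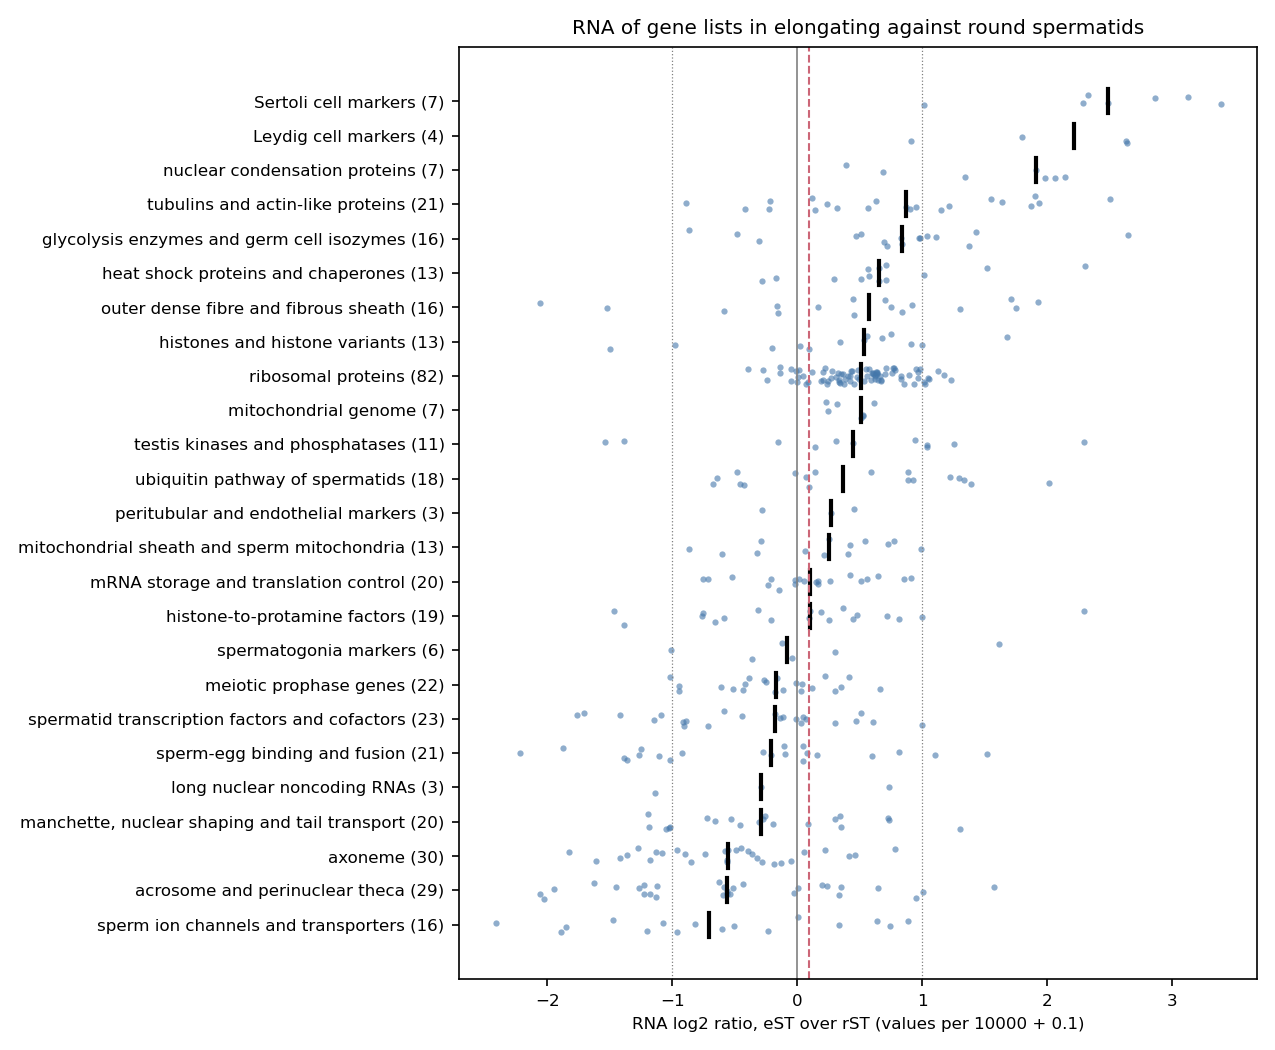
RNA log2 ratio of eST over rST (values per 10000 plus 0.1) for the members of each gene list with at least 3 genes compared, with 1 point per gene, a black bar at the list median and the number compared in brackets. The dotted lines mark 2-fold, and the dashed line the median of all genes compared, 0.09. Sertoli and Leydig cell markers and nuclear condensation genes stand at the top, and sperm ion channels at the bottom with a median of -0.71.

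Lists of metabolism and protein turnover held both spermatid and somatic genes. Their counts stand beside 10% higher and 11.3% lower over all genes. Of 16 glycolysis genes compared, 5 (31.2%) were higher and none lower, with a median of 0.83. Pgk2, the germ cell phosphoglycerate kinase, was at 1.98 per 10000 in rST and 5.51 in eST (1.43), above a highest somatic level of 0.376. Tpi1 was at 0.431 and 1.27 (1.37). Ldhb had the largest ratio of the list, 2.64, and was at 1.74 in eST against 4.43 in the highest somatic population. Of 18 genes of the ubiquitin pathway in spermatids, 5 (27.8%) were higher and none lower. They included Rnf133, a ubiquitin ligase of the endoplasmic reticulum (2.01), Asb17 (1.39), and Spem1 (1.34) and Spem2 (1.29), genes of late spermatid maturation. Of 11 testis kinases and phosphatases, 4 were higher and 2 lower. Tssk3 had a log2 ratio of 1.04 and Tssk4, of the same kinase family as Tssk6, -1.54.

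Chaperone and cytoskeletal genes were also mixed, and are read beside the same 10% higher and 11.3% lower over all genes. Of 13 chaperone genes, 3 were higher, with Hspa1l, an Hsp70 of spermatids, at 1.58 and 8.18 (2.30) and Dnajb3 at 2.99 and 8.73 (1.52), both above every somatic population. Hspe1, the mitochondrial co-chaperone, was at 0.103 and 0.310 (1.01), with 0.796 in the highest somatic population. Of 21 tubulin and actin-like genes, 8 (38.1%) were higher and none lower. In 8 of the 22 listed, a somatic population stood at or above both rST and eST. Tuba1a (2.50), Tubb5 (1.90), Tubb3 (1.87) and Actb, at 3.64 and 11.6 (1.64), had somatic populations above eST, while Actl11, a testis actin-like gene, was at 0.249 and 1.23 (1.93) against 0.0490. Of 82 ribosomal protein genes compared, 7 (8.54%) were higher, near the share over all genes, and none was lower. Their median was 0.51, and in 81 of 83 listed a somatic population stood at or above both rST and eST.

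Of 23 transcription factors and cofactors of spermatids, 5 (21.7%) were at least 2-fold lower and none 2-fold higher. The share lower was 11.3% over all genes and 22.6% over genes above every somatic population. In 5 of the 23 a somatic population stood at or above both rST and eST, so neither reference matches the list. Of the 23, 8 had a ratio above 0, the highest at 0.999. Crem, the activator of many postmeiotic promoters, was at 3.80 per 10000 in rST and 1.73 in eST (-1.09). Sox5 was at 2.87 and 0.807 (-1.71), Rfx3 had -1.42, and the Y-linked Zfy2 was at 1.01 and 0.227 (-1.77). Nr6a1, the germ cell nuclear factor, had -1.15. The NF-Y subunits moved little, with Nfya at 0.725 and 0.767 (0.07), Nfyb at 0.123 and 0.209 (0.47) and Nfyc at 0.769 and 0.540 (-0.44). Of 20 genes of mRNA storage and translation control, none reached 2-fold either way, 12 had a ratio above 0 and the median was 0.10. Ybx2, which packs stored mRNAs, was at 15.7 and 29.5 (0.91), and Tdrd7, of the chromatoid body, at 1.66 and 0.939 (-0.76). Of 22 genes of meiotic prophase, 1 was lower, the cohesin Smc1b, with -1.02. Of 6 spermatogonia markers, Uchl1 was higher (1.62), with a somatic population above eST, and Gfra1 was lower (-1.01). Of 3 long nuclear noncoding RNAs, Kcnq1ot1 was lower (-1.14).

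Of the 249 genes with eST above every somatic population, 232 had their highest level of the 9 germ cell populations in eST, which the choice of genes higher in eST than in rST largely fixes. Cabs1, a calcium-binding protein gene of spermatids, was at 1.69 per 10000 in rST and 11.0 in eST (2.63). Gm28434 lies over it and had nearly the same values, so the pair counts as 1. Oxct2b (2.32) and Oxct2a (2.29) are near-identical copies that encode testis enzymes of ketone body use. Hspa1l (2.30) lay between them, and Tssk6 (2.29) and then Bmp8b (2.21), a growth factor gene of germ cells, came next. The scaffold gene Akap12 was at 6.59 and 25.3 (1.92), with 9.30 in the highest somatic population. The median length of the coding genes among the 249 was 10.9 kb, against 27.6 kb over all genes compared.

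The genes lower in eST were long and often noncoding. Of 1916 long noncoding genes compared, 564 (29.4%) were lower and 22 (1.15%) higher, with a median of -0.64. Of 12993 protein-coding genes, 1114 (8.57%) were lower and 1491 (11.5%) higher, with a median of 0.18. Noncoding genes made up 33.6% of the lower genes with a known type and 12.8% of all. Coding genes that were lower had a median length of 51.3 kb. Of the 12 smallest ratios under the naming rule, 8 were long noncoding, 3 had no matched type and 1, Pcdh9, was coding. The noncoding 4930586N03Rik, the smallest, was at 3.64 per 10000 in rST and 0.377 in eST (-2.97). Pcdh9, a protocadherin gene, was at 4.45 and 0.523 (-2.87).

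Other coding genes with small ratios included 4931409K22Rik, at 15.8 and 2.53 (-2.60), and Mroh9 (-2.45). Gpat3, of glycerolipid synthesis, was at 6.50 and 0.982 (-2.61). The chloride channel gene Cftr was at 5.75 and 0.933 (-2.50), the ATP-gated channel gene P2rx3 at 5.44 and 0.858 (-2.53), and Dnah3, an axonemal dynein heavy chain, at 5.05 and 0.830 (-2.47). All 21 protocadherin gamma genes compared were lower, at 7.20 to 8.45 in rST and 1.20 to 1.52 in eST. These genes share their last exons and their values are nearly the same, so they count as 1 signal. Genes that overlap or lie antisense to one another could not be separated here, since the handling of strand in the counts is not given in the sources used here.

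On the X chromosome, 103 of 473 genes compared (21.8%) were higher in eST and 27 (5.71%) lower, against 9.78% and 11.4% of the autosomal genes. Of the 103, 97 had a somatic population at or above eST. The other 6 were Akap4, Tspan6, Vsig1, Dmrtc1b, 4933400A11Rik and Gm6760. Tspan6, a tetraspanin gene, was at 1.08 per 10000 in rST and 3.76 in eST (1.71). Of 23 Y-linked genes, 5 were lower and 1 higher. From a list of 8 X- and Y-linked genes of spermatids, 2 could be compared and neither reached 2-fold, Slxl1 with -0.99 and Usp26 with -0.76.

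Accessibility was lower in eST over most genes, with the larger differences among genes of low signal. With 1 added to values in ppm, 5821 of 30478 genes (19.1%) were at least 2-fold lower and 1852 (6.08%) at least 2-fold higher, and the median log2 ratio was -0.26. Mitochondrial genes took 43.7% of the eST signal and 40.2% of the rST signal. With ratios centred on the median gene, 3979 were lower and 2954 higher. The SD of the log2 ratio was 1 among genes at 3 to 10 ppm and 0.464 among genes at 30 to 100, so single genes of low signal carry little weight. At 30 to 100 ppm, 123 of 6821 genes (1.80%) were lower and 138 (2.02%) higher, with a median of -0.05. Among genes at 1 to 3 ppm the median was -0.79, and among 107 genes at 100 to 300 ppm it was 0.07. Apart from mitochondrial genes, 2456 genes were at 0 in eST and 188 in rST, so depth and a shift at low signal cannot be told apart.

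Accessibility of the genes of nuclear condensation was mostly lower in eST, while their RNA was mostly higher. The 7 nuclear condensation genes summed to 46.8 ppm in pSC, 95.1 in dSC, 232 in rST and 108 in eST, and 5 of the 7 were at least 2-fold lower, with a median log2 ratio of -1.20, against 19.1% and -0.26 over all genes. Tnp2 was at 13.2 in pSC, 25.0 in dSC, 48.3 in rST and 19.0 in eST (-1.30), and Tnp1 at 5.76, 11.6, 32.2 and 16.0 (-0.97). Of these 4 populations, rST was highest for both genes. Prm1 was at 7.89 and 1.70 (-1.72), and Prm2 at 23.3 and 10.5 (-1.08). H1fnt was level, at 20.7 and 21.2 (0.03). Odf1 was at 7.10 in pSC, 18.4 in dSC, 47.1 in rST and 11.7 in eST (-1.92), and Akap4 at 27.1 in rST and 11.6 in eST (-1.15). Hspa1l, at 24.4 and 23.8 (-0.03), Tssk6, at 51.9 and 45.4 (-0.19), and Cabs1, at 8.01 and 8.57 (0.09), were level. Over all genes at 10 to 30 ppm the SD of the log2 ratio was 0.867. Single genes with a lower and with a level value are therefore not clearly told apart.

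Spermatid lists differed in how many members were less accessible. They are read against the 7352 genes above every somatic population in RNA with both values, of which 1564 (21.3%) were at least 2-fold less accessible and 190 (2.58%) more, with a median of -0.36. Members at least 2-fold lower numbered 7 of 16 (43.8%) for dense fibres and fibrous sheath (median -0.74), 7 of 17 (41.2%) for ion channels (-0.74), 5 of 13 (38.5%) for the mitochondrial sheath (-0.96), 10 of 29 (34.5%) for the acrosome (-0.87) and 7 of 22 (31.8%) for sperm-egg fusion (-0.63). The axoneme, with 8 of 31 (25.8%) and -0.60, was near the background share. The transcription factors had 3 of 23 (-0.22), the manchette 1 of 20 (-0.29) and mRNA storage 1 of 20 (-0.06). In these last 3 lists, 5, 5 and 8 members had a somatic population at or above both rST and eST in RNA. Over all genes compared in both matrices the share was 13.9% and the median -0.22. None of these lists had a member 2-fold higher. The Sertoli cell markers had a median of 0.51, with 2 of 8 higher, Clu at 7.05 and 31.7 (2.02) and Sox9 at 10.9 and 28.6 (1.32), against 58.0 and 62.9 in soma_Sertoli. Of the other members, Amhr2, the receptor of anti-Mullerian hormone, was at 8.37 and 3.85 (-0.95) and Rhox5, an X-linked homeobox gene, at 3.18 and 1.64 (-0.66). The Leydig cell markers had a median of -0.70, with 4 of 5 at a lower value and 1 of these 2-fold lower. Macrophage markers had a median of 0.63, with 1 of 4 higher. Peritubular and endothelial markers had -0.38, with 1 of 4 higher and 1 lower. Ribosomal protein genes, active in every cell, had a median of -0.05, with 2 of 83 lower.

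Single genes at the ends of the accessibility scale had unlike RNA. Llcfc1, required for sperm-egg fusion, had the smallest ratio under the naming rule, at 26.3 ppm in rST and 0.908 in eST (-3.84), while its RNA was 2.68 and 2.76 per 10000. Iqcf3 was at 25.1 and 1.18 (-3.58), with RNA of 5.17 and 4.19. The largest ratios belonged to Vmn1r121 (4.38), Olfr819 (4.15), Cyp2c40 (4.07), Gm27016 (3.94), Vmn2r91 (3.89) and Olfr1348 (3.77), mostly receptor genes of the nose. Their RNA was under 0.01 per 10000 or not in the RNA matrix. Vmn1r121 was at 0.230 ppm in rST and 24.6 in eST.

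Across the 15304 genes compared in both, the ratios of RNA and accessibility were weakly related (Pearson r 0.24, Spearman rho 0.22, across genes of the same pooled cells, which are not independent replicates). Genes with lower RNA had a median accessibility log2 ratio of -0.61, and 588 of 1726 (34.1%) were at least 2-fold less accessible, against 2133 (13.9%) of all. Among genes above every somatic population the share was 571 of 1660 (34.4%), with a median of -0.63, against 21.3% of all such genes. Genes with higher RNA had a median of -0.07, with 121 (7.87%) at least 2-fold less accessible and 87 (5.66%) more, against 469 (3.06%) more accessible of all. Among 8324 genes with an RNA mean of at least 0.2 and accessibility of at least 10, the lower genes still had a median of -0.43, with 251 of 988 (25.4%) less accessible, against 8.45% of all.

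**Figure D4:**
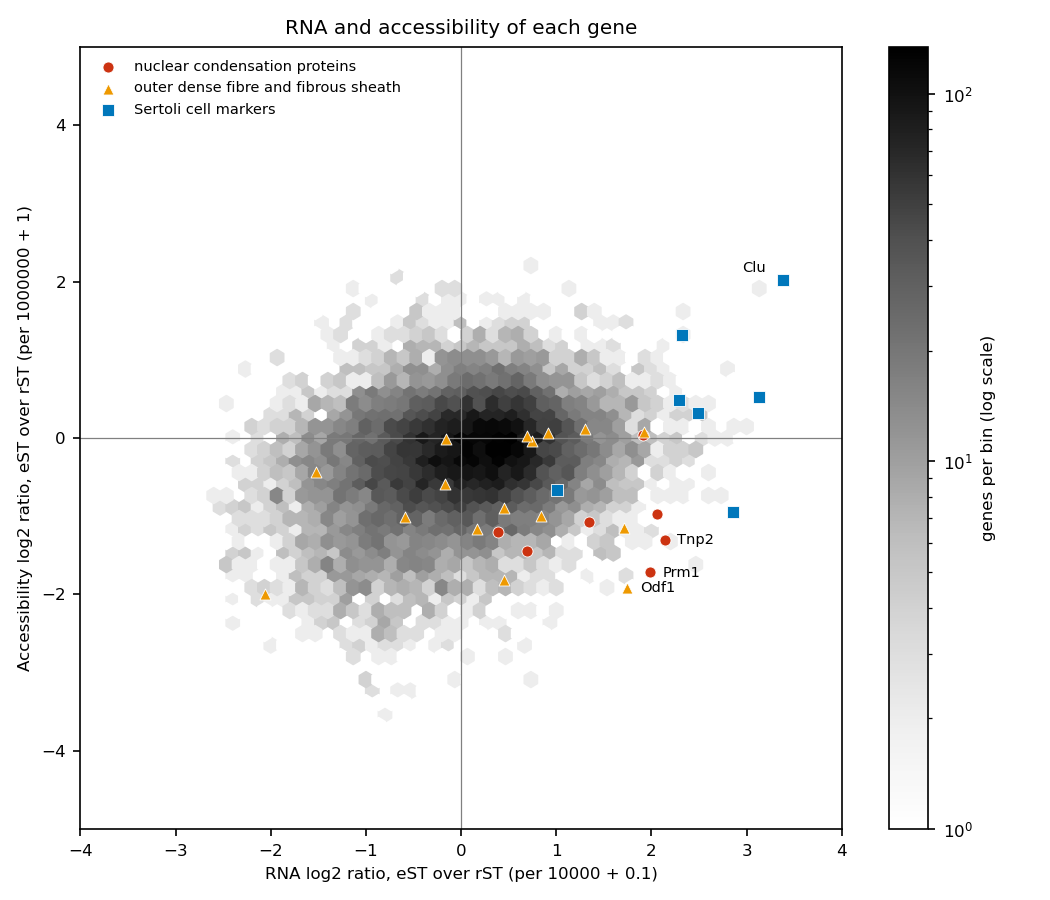
Accessibility log2 ratio (values in ppm plus 1) against RNA log2 ratio (values per 10000 plus 0.1) of eST over rST, with genes counted in hexagonal bins (grey, log scale) and the members of 3 lists drawn as symbols. Tnp2, Prm1 and Odf1 lie to the right and below, with more RNA and less accessibility, and Clu lies to the right and above, at 3.39 and 2.02.

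The genes with higher RNA divided again by the somatic populations. The 249 with eST above every somatic population had a median accessibility ratio of -0.23, with 44 (17.7%) at least 2-fold lower and 5 (2.01%) higher. Genes above every somatic population whose RNA was neither higher nor lower had -0.32 and 17.4%, so the share of the 249 was near this background. The 1289 with a somatic population at or above eST had a median of -0.04, with 77 (5.97%) at least 2-fold lower and 82 (6.36%) higher. The 5 genes that led the class with more of both were Clu, Gstm7, Defb36, Gstm6 and Stx1a. Gstm7 was at 7.42 and 35.6 ppm (2.12), and all 5 had a somatic population above eST in RNA. Those with more RNA and less accessibility were Odf1, Clmn, Ogdhl, Htatsf1 and 1500009L16Rik. Of these, Odf1 and Clmn, at 1.68 and 4.84 per 10000 of RNA and 32.7 and 9.48 ppm of accessibility, stood above every somatic population.

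**Figure D5:**
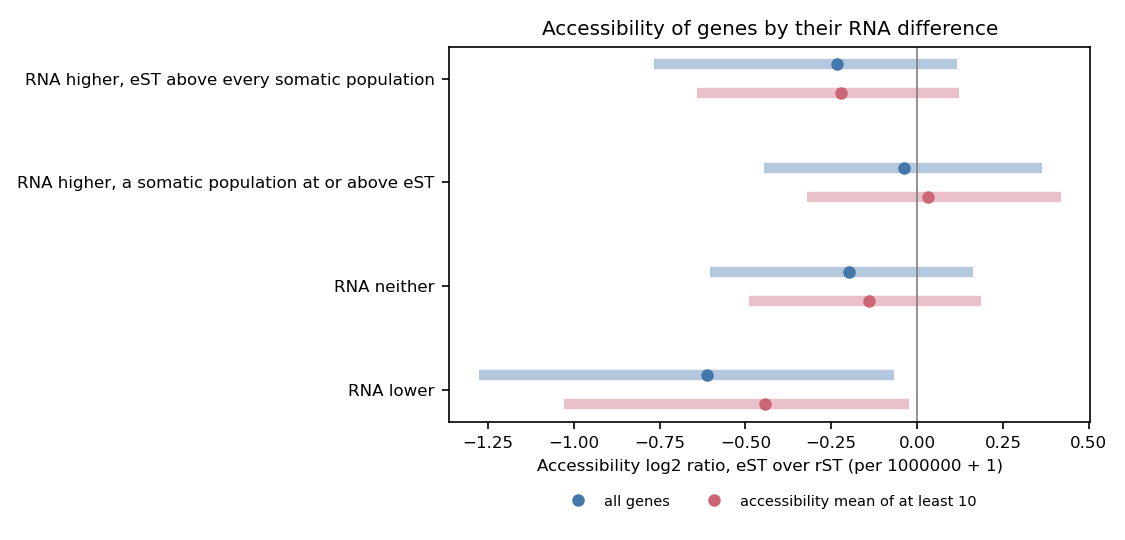
Median (point) and quartiles (bar) of the accessibility log2 ratio of eST over rST for genes grouped by RNA, for all genes and for those with an accessibility mean of at least 10 ppm. Genes with lower RNA had a median of -0.61, and genes with higher RNA and a somatic population at or above eST lay nearest to 0.

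Genes with lower RNA divided by accessibility as well. AC155255.1, Gm20642, 4930584F24Rik, 4930517O19Rik and Gm27211 led those lower in both, and Gm20642 was at 2.93 and 0.462 per 10000 of RNA and 19.2 and 2.83 ppm of accessibility. Those with less RNA and at least 2-fold more accessibility numbered 48 of 1726 (2.78%), near the 3.06% of all genes compared in both. They were led by Slc17a6, Gm5608, Fat3, Map2 and Hs3st4. Slc17a6, a vesicular glutamate transporter gene, was at 0.823 and 0.131 per 10000 of RNA and 5.43 and 25.7 ppm of accessibility.

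Motifs were counted in RefSeq promoters from 250 bases before to 50 after each start. Promoters were found for 1506 starts of genes with higher RNA, 1550 with lower, 11248 with neither and 32851 in all, which include genes that were not compared. The CCAAT box was in 36.1% with higher RNA, 38.5% with lower, 38.3% with neither and 37.4% of all. The full CRE was in 2.59%, 3.10%, 3.03% and 1.79%, in the same order. Its short form, which the full CRE also contains, was in 25.8%, 21.4%, 29.8% and 20.8%. The X-box core was in 12.7%, 17.2%, 13.6% and 12.5%, and the TATA box in 8.63%, 11.9%, 7.52% and 13.6%. The CRE variant, chosen for counting after it was seen in the promoters of Tnp1 and Akap4, was in 2.59% with higher RNA, 6.97% with lower, 2.39% with neither and 3.62% of all. For each motif but the CCAAT box, whether genes with higher RNA lay above or below the reference depended on which reference was taken, the class with neither or all promoters. Among the 249 genes with eST above every somatic population, 18 of 232 promoters (7.76%) held it, against 21 of 1274 (1.65%) where a somatic population was at or above eST. Tnp1 and Akap4, which led to the choice of the variant, are among the 249, so this share is no independent count. Among genes above every somatic population, the variant was in 7.14% with lower RNA and 3.66% with neither. These shares are descriptions, and no match says only that the letters are not in the window.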

How the data were processed

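Nuclei of mouse testes from 5 conditions, 1 library per condition and assay, were profiled for RNA and for accessible chromatin together. The authors aligned scRNA-seq reads to mm10 with STAR 2.7.10b, kept uniquely mapped reads, collapsed UMIs, and clustered cells with Seurat 5.2.1 after removal of low-quality cells and of doublets. For scATAC-seq the authors used BWA 0.7.12, shifted fragment ends for the transposase, converted files with bedtools 2.27.1 and clustered cells with ArchR 1.0.3.

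The authors deposited a table of cells per assay, with raw counts of UMIs or fragments, the percent of mitochondrial UMIs, the fraction of reads in promoters and TSS enrichment as a ratio. The authors also deposited 1 matrix per assay, with a pooled value per gene for each population on a natural log scale. That the RNA values are the log of 1 plus a mean summing to 10000 was found from the values. The authors' methods describe reads merged by cell type into tracks scaled per 1000000, and promoter accessibility as mean coverage around the TSS. The deposited accessibility matrix instead sums to 10000 per population with mitochondrial genes included, and whether it holds that promoter window is not given in the sources used here.

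Values were returned to a linear scale by exp(value) - 1, accessibility was scaled to 1000000 per population (ppm), and log2 ratios of eST over rST were taken with pseudocounts of 0.1 (RNA, mean of both at least 0.05 per 10000) and 1 (accessibility). No p-value was computed, since each population has 1 value per gene. The calculation was tested on simulated data. Gene types and positions came from GENCODE vM21, promoters from RefSeq. Python 3.11.15, pandas 2.3.3, numpy 2.4.6, SciPy 1.17.1 and matplotlib 3.10.9 were used.

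The genes named by rule were the 12 largest and 12 smallest RNA ratios (mean at least 0.2), the 6 largest and 6 smallest accessibility ratios (mean at least 10), the 5 leading genes of each joint direction, all 7 nuclear condensation genes, up to 4 RNA and 2 accessibility extremes per side of each of the other lists with its most abundant member, and the NF-Y subunits. The genes compared, the 27 lists and this rule were chosen with earlier results of these data known. The split by somatic populations, the smallest coding genes, the largest genes above every somatic population, X-linked genes of that kind, Crem, the CRE variant and the check of shared barcodes were added after the values were seen. Alternatives changed the pseudocounts, the minimum signal, the centring and the cells included.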

Additional observations from a re-analysis of the deposited data

How the results depend on the processing

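No value counted as 2-fold changed sign under the alternatives run, whereas the median RNA log2 ratio over genes, 0.09, was -0.43 among genes above every somatic population. The count of genes with RNA higher in eST was 2789 with a pseudocount of 0.01, 172 with 1 and 249 among genes above every somatic population (chosen after seeing the data), and the count of lower genes was 2856 with 0.01 and 266 with 1. With an RNA pseudocount of 1 the median log2 ratio of the nuclear condensation list was 1.25, of tubulins and actin-like genes 0.27, of Sertoli cell markers 1.28 and of Leydig cell markers 0.74. The count of genes with higher accessibility was 373 with a pseudocount of 10, 808 with a mean of at least 10 and 2954 after centring, and of lower genes 361 with a pseudocount of 10 and 1112 with a mean of at least 10. The X- and Y-linked list then had a median of -0.18 with a pseudocount of 10.

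The share of genes with lower RNA that were 2-fold less accessible was 7.65% with an accessibility pseudocount of 10. The share among genes with higher RNA was 12.8% with an RNA pseudocount of 1, 17.7% above every somatic population, 0.845% with an accessibility pseudocount of 10, 3.62% with an accessibility mean of at least 10, 4.49% after centring and 4% with both minimum means. Over all genes it was 21.3%, 2.14%, 8.07%, 9.12% and 8.45% in the last 5 of these settings. The ratio of eST to rST in median UMIs per cell was 0.750 with cluster 27 alone, in median genes 0.726 with cluster 27 and 0.791 without shared barcodes, and in percent mitochondrial UMIs 2.51 and 2.67. The CRE variant was in 7.76% of promoters of genes with higher RNA above every somatic population. Ratios of named genes moved by over 1.5-fold in 121 of 2019 RNA settings and 98 of 1508 accessibility settings. Depth is 1 limit of accessibility, with 124 scATAC-seq cells that carry the eST name. No replicate could be left out, and no paired analysis was possible because each population has 1 pooled value and no test was made.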
